A study of Saccharomyces cerevisiae with 4 samples.

Results

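The general stress response genes of the budding yeast Saccharomyces cerevisiae were followed on 4 spotted 2-colour arrays. Their 31 members were taken as a list of gene symbols, and all 31 had a row among the 6212 rows of the deposited table. For 30 the row name was the locus tag in RefSeq's gene table, and for DDR2 it was an older name (YOL053C-a). Strain DBY4741 was grown in rich glucose medium at 28 °C, and each array gave the ratio of 2 of its RNAs. On 2 arrays untreated log-phase cells carrying reg1::KanMX, in which a drug-resistance cassette replaces REG1, were set against untreated wild-type cells, both collected by centrifugation. On the other 2 arrays both RNAs came from reg1::KanMX cells. In one, medium of about pH 5.5 had been brought to about pH 8.0 with 16 mM KOH for 10 min. In the other, the same concentration of KCl had been added for the same time, and both were collected by rapid filtration. No wild-type cells under KOH were analysed here, so the alkali values describe the reg1 strain only. Whether the 2 experiments of a comparison came from separate cultures or clones is not in the labels. The p-values therefore cover the spread between arrays of the same comparison, and that spread may be only technical. It was pooled over both comparisons where a gene had values in both.

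When yeast meets heat, osmotic, oxidative or nutrient stress, the zinc-finger factors Msn2 and Msn4 enter the nucleus and switch on a broad set of genes through short promoter elements. Protein kinase A, active in glucose, keeps both factors in the cytoplasm. Reg1 directs the phosphatase Glc7 against the kinase Snf1, so that cells without it have active Snf1 even in glucose. The comparisons ask which stress genes differ in unstressed reg1 cells, and which of them respond in that mutant when the medium turns alkaline.

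Every value below is a log2 ratio, that is, a difference between 2 RNAs of the same array and not a level. Dyes were swapped between the arrays of a comparison. The deleted gene REG1 had -1.10 and -0.96 on the mutant arrays, which sets their direction as reg1 over wild type. REG1 had no value on the alkali arrays, where KOH over KCl is the direction of the titles and ENA1, a sodium pump gene known to be induced by alkali, had 7.40 on both. Between 4746 and 5190 rows had a value on an array. In the 2794 rows from YKL011C to YPR204W each mutant value was taken from 2 rows below the row name, because the pattern of missing values there matched the alkali columns at that position (r = 0.753) and not at the row names (r = 0.042). This applied to 19 members. In 199 rows it is not settled which columns are displaced, and they were left out of both comparisons. MOH1, a gene linked to survival in stationary phase, is the 1 member among them.

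Of the 31 members, 24 had a value on both mutant arrays and 26 on both alkali arrays. PAI3, the gene of a proteinase A inhibitor, and SIP18, that of a hydrophilin, had no value on any array. GRE1, another hydrophilin gene, and DDR2 had none on the mutant arrays. HOR7, the gene of a small protein induced by osmotic stress, had none on the alkali arrays. DDR2, DDR48 and XBP1 were each measured on 1 array of a comparison. Per the labels, the authors had removed small and dim spots. Why these members lack values was not tested, and a missing value says nothing of their RNA.

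In reg1 cells without stress, 4 of the 24 measured stress genes rose and 20 did not pass. They were RGI1, OM45, HSP12 and PNC1, with folds between 1.78 and 3.82. Most of the remaining members lay near 0, and the median of the 24 was 0.08, against -0.05 over all 4702 rows tested. By limma's test with Benjamini-Hochberg adjustment over all rows, 6.91% of rows were called, 5.08% as higher and 1.83% as lower. The members called make 16.7% of those tested. The members were chosen with earlier results of these data known, so this share and those below are descriptions and not tests. None was called lower. At an unadjusted limma p under 0.05 there were 6 higher and 1 lower, HOR7 and MSC1 being added above 0 and UBI4 below it. The 14 measured members in rows read from the lower position held none of the 4 calls.

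**Figure D1:**
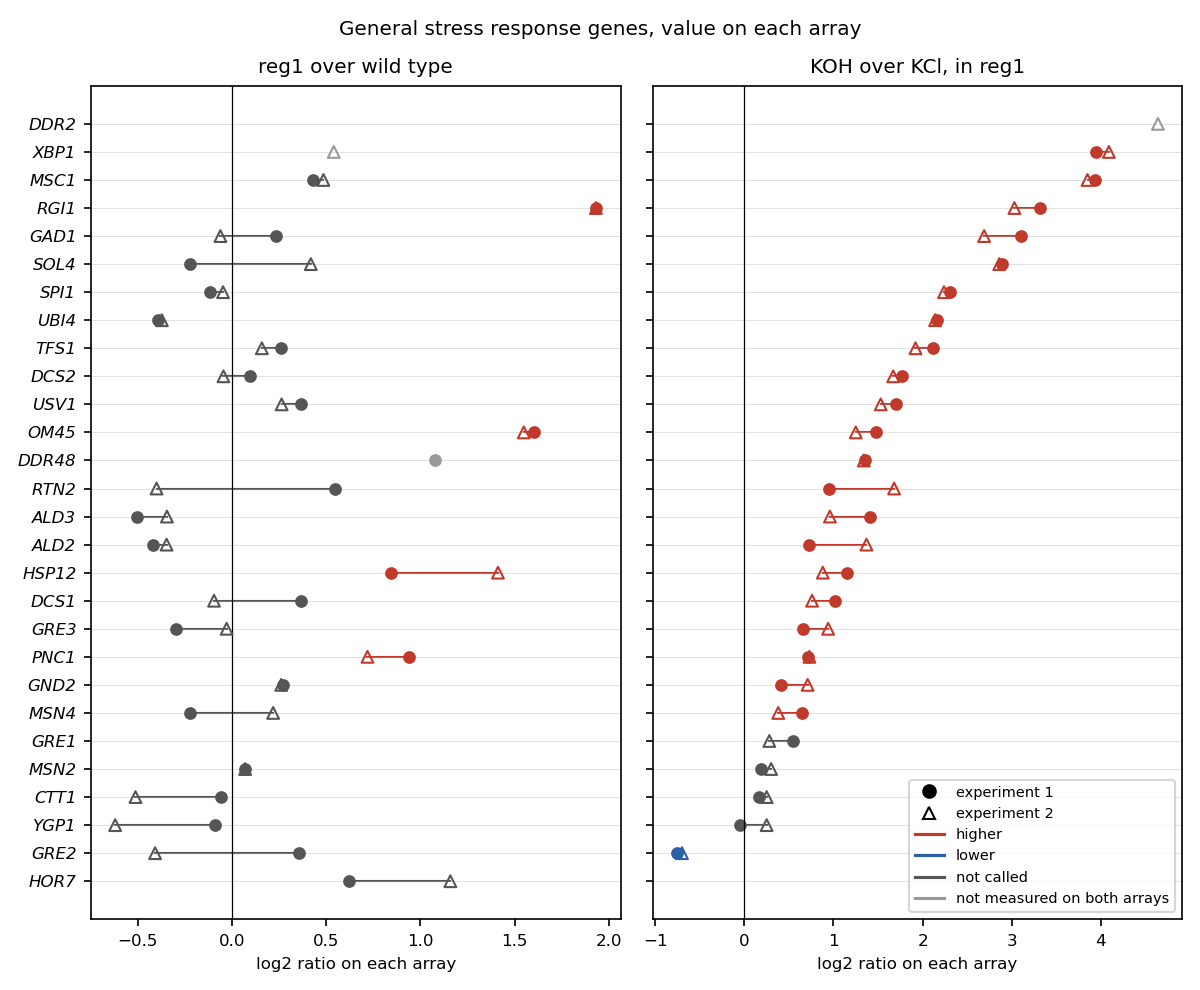
Log2 ratio of each measured stress gene on each array (circles, experiment 1; triangles, experiment 2), left for reg1 over wild type and right for KOH over KCl in reg1, ordered by the alkali value and coloured by limma's call at an adjusted p of 0.05. On the left 4 genes are red and most lie near 0; on the right 21 are red, from 0.52 for MSN4 to 4.02 for XBP1, and GRE2 is the only blue one.

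RGI1, a gene of energy metabolism needed for respiratory growth, had 1.94 and 1.93 on the mutant arrays, a mean of 1.93 ± 0.00 (SD, n = 2; limma adjusted p = 0.00318). That is 3.82-fold above wild type and the 43rd highest mean of all rows tested. OM45, the gene of an abundant protein of the mitochondrial outer membrane, had 1.60 and 1.55 (1.58 ± 0.04, limma adjusted p = 0.00487). Both arrays were above 2-fold for this pair of genes, and no other member reached 2-fold on both. Of all rows tested 2.85% were at 2-fold or more in that direction.

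HSP12, which encodes a small membrane-associated stress protein and is a common reporter of Msn2 and Msn4 activity, had 0.85 and 1.41 (1.13 ± 0.40, limma adjusted p = 0.0286). PNC1, the nicotinamidase gene of NAD salvage, had 0.94 and 0.72 (0.83 ± 0.16, limma adjusted p = 0.0321). The arrays differed more for HSP12 than for the other 3, and both genes depended on how the spread was estimated. With the spread of the mutant arrays alone, and equally without either alkali array, limma gave adjusted p = 0.0799 for HSP12 and 0.121 for PNC1. Without mutant experiment 2, HSP12 stood at 0.85 (adjusted p = 0.0769) and PNC1 at 0.94 (0.0540). Without mutant experiment 1, PNC1 stood at 0.72 (0.0675). RGI1 and OM45 passed in each of 12 alternative fits. All 4 genes lie in rows where the mutant columns stand at their names.

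HOR7 had 0.62 and 1.16 (0.89 ± 0.38), a mean above that of PNC1, and did not pass (limma adjusted p = 0.0749). Its 95% interval ran from 0.37 to 1.41. DDR48, a gene first described for its response to DNA damage, had 1.08 on experiment 1 only. XBP1, the gene of a stress-induced repressor of cyclin genes, had 0.54 on experiment 2 only. With 1 array each, DDR48 and XBP1 cannot be set against a replicate spread. HOR7 did pass with the experiment number as a replicate block (adjusted p = 0.0293) and with a dye term (4.7e-04). Without alkali values, however, both mutant values of HOR7 are used up by the mean and the extra term. The gap between its arrays is then absorbed, and the p-values rest on the spread of other genes. Neither fit can therefore speak for a change of HOR7.

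The transcription factor genes themselves were close to 0 in the mutant. MSN2 had 0.07 on both arrays, with a 95% interval of the mean from -0.28 to 0.42. MSN4 had -0.23 and 0.22, an interval of the mean from -0.44 to 0.44. USV1, the gene of a zinc-finger factor of the response to non-fermentable carbon sources, had 0.36 and 0.26 (0.31 ± 0.07, limma adjusted p = 0.257). For MSN2 and MSN4 these intervals of the array ratio do not reach a 2-fold change in either direction. REG1, although deleted, had only -1.10 and -0.96 on the same arrays. The ratios may therefore understate changes in RNA, and the intervals do not exclude a larger fall. MSN2, MSN4 and USV1 lie in rows whose mutant values were taken from 2 rows below the row name. The intervals concern the RNA, whereas Msn2 and Msn4 are known to be controlled mainly by where the protein is in the cell.

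Several of the best-known stress genes had values below 0 in reg1 without passing. CTT1, the gene of cytosolic catalase, had -0.06 and -0.51 (-0.29 ± 0.32, limma adjusted p = 0.358). YGP1, which encodes a secreted glycoprotein made when nutrients run low, had -0.09 and -0.62. UBI4, the polyubiquitin gene, had -0.39 and -0.37 (-0.38 ± 0.01, limma adjusted p = 0.170). The neighbouring aldehyde dehydrogenase genes ALD2 and ALD3 had means of -0.38 and -0.43, with all 4 array values below 0. ALD2 and ALD3 are close copies whose spots may share signal.

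The other 11 members had mutant means between -0.16 for GRE3 and 0.46 for MSC1. MSC1, a gene with a part in meiotic recombination, had 0.43 and 0.49, above 0 on both arrays (0.46 ± 0.04, limma adjusted p = 0.121). In RTN2, a reticulon gene of the endoplasmic reticulum, the arrays disagreed by the widest margin, 0.54 and -0.40. In all, 7 of the 24 members had opposite signs on the mutant arrays, 10 were above 0 on both and 7 below 0 on both. The median gap between the arrays was 0.19 for the members and 0.32 over all rows tested.

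After 10 min at about pH 8, 21 of 26 measured stress genes rose in reg1 cells, 1 fell and 4 did not pass. XBP1, MSC1, RGI1, GAD1 and SOL4 rose the most, by 7.34 to 16.2-fold. Over all 4521 rows tested limma called 61.6%, of which 29.0% of rows were higher and 32.6% lower. The members' median was 1.25, against -0.09 over all rows. Of the 26 members 80.8% were called higher.

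XBP1 had 3.95 and 4.09 (4.02 ± 0.10, SD, n = 2; limma adjusted p = 1.9e-04), the 35th highest mean of all rows. USV1 had 1.70 and 1.53 (1.62 ± 0.12), 3.06-fold. Values of the master regulators were far smaller. MSN4 had 0.65 and 0.38 (0.52 ± 0.19, limma adjusted p = 0.0473). It no longer passed without alkali experiment 1 (0.38, adjusted p = 0.386), without experiment 2 (0.65, 0.155), with the mutant columns at their row names (0.0684), with the experiment number as a replicate block (0.0511), or with arrays scaled to the same spread (0.270). MSN2 had 0.19 and 0.30 and did not pass (0.25 ± 0.08, limma adjusted p = 0.183), with a 95% interval from -0.11 to 0.60.

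Among hydrophilins and other small stress proteins, DDR2, whose protein accumulates under many stresses, had the highest single value of any member, 4.64, but on experiment 2 only. DDR48 rose, with 1.35 and 1.34 (1.35 ± 0.01, limma adjusted p = 0.00204). HSP12 had 1.15 and 0.88 (1.02 ± 0.19, limma adjusted p = 0.00631). Without alkali experiment 1 it stood at 0.88 and did not pass (adjusted p = 0.0982). GRE1 had 0.55 and 0.28 and did not pass (limma adjusted p = 0.0861); with the spread of the alkali arrays alone it did (0.0382). All values of these genes lay above 0.

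The cell wall and secreted proteins differed. SPI1, the gene of a glycosylphosphatidylinositol-anchored wall protein induced by weak acids and in stationary phase, had 2.31 and 2.24 (2.28 ± 0.05, limma adjusted p = 2.4e-04), 4.84-fold. YGP1 had -0.05 and 0.25, a mean whose 95% interval ran from -0.37 to 0.57. For YGP1 a 2-fold change in either direction lies outside that interval.

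Redox and detoxification genes covered a wide range, from a fall to a 7.44-fold rise. GAD1, the glutamate decarboxylase gene of the pathway through gamma-aminobutyrate, had 3.10 and 2.69 (2.90 ± 0.29, limma adjusted p = 2.1e-04). ALD3 had 1.41 and 0.96 and ALD2 0.72 and 1.37, so that neither was higher than the other on both arrays. GRE3, the aldose reductase gene, had 0.66 and 0.94 (0.80 ± 0.20), and PNC1 0.71 and 0.73 (0.72 ± 0.01). These 4 rose in the fit of all arrays, with limma adjusted p between 0.00241 and 0.00829. Each lost its call without at least 1 of the alkali arrays. Without alkali experiment 1, ALD3 stood at 0.96 (adjusted p = 0.0556), GRE3 at 0.94 (0.0626) and PNC1 at 0.73 (0.110). Without experiment 2, ALD2 stood at 0.72 (0.0991), GRE3 at 0.66 (0.132) and PNC1 at 0.71 (0.109).

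CTT1, among the genes most often used to follow Msn2 and Msn4, had 0.16 and 0.25 (0.21 ± 0.06) and did not pass (limma adjusted p = 0.337). Its 95% interval, from -0.22 to 0.63, excludes a 2-fold rise. GRE2, the gene of a methylglyoxal reductase, was the only member that fell, with -0.76 and -0.70 (-0.73 ± 0.04, limma adjusted p = 0.0281). The call of GRE2 was lost without alkali experiment 1 (-0.70, adjusted p = 0.196), without experiment 2 (-0.76, 0.156), and with arrays scaled to the same spread (-0.50, 0.266).

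Both pentose phosphate genes rose, where 29.0% of all rows were called higher. SOL4, a 6-phosphogluconolactonase gene, had 2.89 and 2.86 (2.88 ± 0.02, limma adjusted p = 3.0e-04), 7.34-fold. GND2, the minor 6-phosphogluconate dehydrogenase gene, had 0.41 and 0.71 (0.56 ± 0.21, limma adjusted p = 0.0229), and did not pass on either array alone (0.71, adjusted p = 0.110; 0.41, 0.290). Of protein and RNA turnover, all 4 measured genes rose, beside the same 29.0% of all rows. UBI4 had 2.16 and 2.14 (2.15 ± 0.01), and TFS1, which encodes an inhibitor of carboxypeptidase Y, had 2.12 and 1.92 (2.02 ± 0.14). DCS2, a stress-induced relative of the scavenger decapping enzyme, had 1.77 and 1.67 (1.72 ± 0.07), and DCS1, the enzyme's own gene, 1.02 and 0.76 (0.89 ± 0.18). DCS1 did not pass without experiment 1 (0.76, adjusted p = 0.122) or without experiment 2 (1.02, 0.0556).

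The genes grouped under mitochondria, membranes and energy rose as well, 4 of 4 measured, beside 29.0% of all rows called higher. MSC1 had 3.93 and 3.85 (3.89 ± 0.06, limma adjusted p = 1.3e-04), 14.8-fold. RGI1 had 3.32 and 3.03 (3.18 ± 0.21), 9.03-fold, and OM45 1.48 and 1.25 (1.37 ± 0.16). RTN2 had 0.95 and 1.68 (1.32 ± 0.52, limma adjusted p = 0.0103), again the widest gap between arrays among the measured members. It did not pass without experiment 2 (0.95, adjusted p = 0.120).

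The larger increases did not depend on the fits tried, but not all of these 12 fits are separate checks. For the alkali values, leaving out a mutant array repeats the fit with the spread of the alkali arrays alone. XBP1, MSC1, RGI1, GAD1, SOL4, SPI1, UBI4, TFS1, DCS2, USV1, OM45 and DDR48, 12 genes, passed in each of 12 alternative fits, and the same 12 were at 2-fold or more on both arrays. Over all rows 14.8% were at 2-fold or more in that direction. The smaller changes were less firm. Without alkali experiment 1 there were 14 members called, with HSP12, ALD3, GRE2, GRE3, DCS1, PNC1, GND2 and MSN4 lost (adjusted p 0.0556 to 0.386). Without experiment 2 there were also 14, with ALD2 and RTN2 lost in place of HSP12 and ALD3 (0.0556 to 0.290). After scaling each array to a common median absolute value there were 13, all higher, and the median was 0.85. HSP12, ALD2, GRE2, GRE3, DCS1, RTN2, PNC1, GND2 and MSN4 were then lost (adjusted p 0.0501 to 0.270).

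Set side by side, 23 members were tested in both comparisons. The 4 that rose in untreated reg1 cells also rose after KOH in reg1 cells. Of the 4257 rows tested in both, 3.15% were called higher in both comparisons. Among those of the 4257 rows called higher in reg1, 134 were higher after KOH, 33 were lower and 64 were not called. HSP12 and PNC1 lost their mutant call and their alkali call in some of the alternatives given above. Another 15 members were called higher after KOH and not called in the mutant (23.7% of the 4257 rows). GRE2 fell after KOH and was not called in the mutant (32.3%). CTT1, YGP1 and MSN2 passed in neither (37.0%). Whether the 2 responses of a gene differ was not tested, since the comparisons ask different things. MSC1, GAD1, SOL4, SPI1 and UBI4, with alkali means of 2.15 or more, had mutant means between -0.38 and 0.46. RGI1 was high in both.

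**Figure D2:**
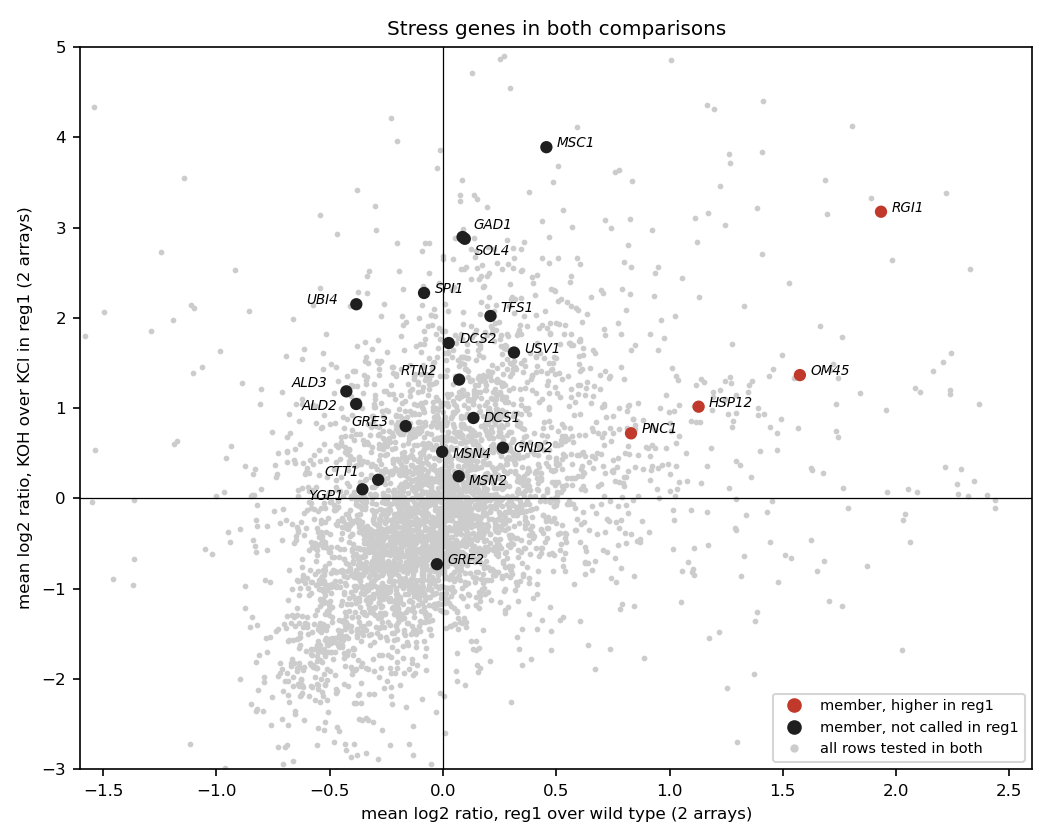
Mean log2 ratio of 23 stress genes in reg1 over wild type (horizontal) and in KOH over KCl in reg1 (vertical), each from 2 arrays, red where called higher in reg1, over the rows tested in both (grey; 48 of 4257 lie outside the axes). RGI1, OM45, HSP12 and PNC1 stand to the right, while MSC1, GAD1, SOL4, SPI1 and UBI4 lie high near the vertical axis.

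Genes related to a member in sequence or by duplication were measured beside it, 9 outside the list and 3 pairs within it (ALD2 and ALD3, DCS1 and DCS2, MSN2 and MSN4). SOL4 rose after KOH while SOL3, its housekeeping relative, had -0.40 and -0.38 (-0.39 ± 0.01, limma adjusted p = 0.179). GND2 rose and GND1, the major enzyme's gene, fell, with -0.66 and -0.44 (-0.55 ± 0.16, limma adjusted p = 0.0226). In the mutant it was GND1 that was called, with 1.04 and 1.17 (1.11 ± 0.09, limma adjusted p = 0.0142), against 0.27 and 0.26 for GND2. Without either alkali array, GND1 was not called after KOH (adjusted p = 0.280 and 0.123), and without mutant experiment 2 it was not called in the mutant (1.04, 0.0552). Its mutant call was also lost with the spread of the mutant arrays alone and without either alkali array (0.0530), and its alkali call after scaling (-0.37, 0.131). Differences between genes of a pair were not tested.

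SED1, the gene of a major wall protein related to SPI1, rose in both comparisons (0.96 in the mutant, 1.00 after KOH), whereas SPI1 was called only after KOH. RGI2, the relative of RGI1, had 2.55 and 2.33 after KOH, but 0.15 and 1.96 on the mutant arrays, and was not called there (limma adjusted p = 0.185). ARI1, a reductase gene related to GRE2, fell in both comparisons (-1.37 and -0.96). SPS100, related to YGP1, fell after KOH (-1.04 ± 0.45, limma adjusted p = 0.00842). CTA1, the peroxisomal catalase gene, RTN1, RGM1 and SOL3 passed in neither. Without mutant experiment 1 the mutant calls of SED1 (0.81, adjusted p = 0.0624) and ARI1 (-1.17, 0.0562) were lost. Without alkali experiment 1 the alkali calls of SED1 (0.92, 0.0677), ARI1 (-0.77, 0.112) and SPS100 (-0.72, 0.134) were lost. SED1 was also not called in the mutant with the spread of those arrays alone or without either alkali array (0.0904). After scaling, the alkali calls of SED1 (0.0542), ARI1 (0.0847), SPS100 (0.0848) and RGI2 (0.117) were lost. Over these 9 relatives the alkali median was -0.33.

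**Figure D3:**
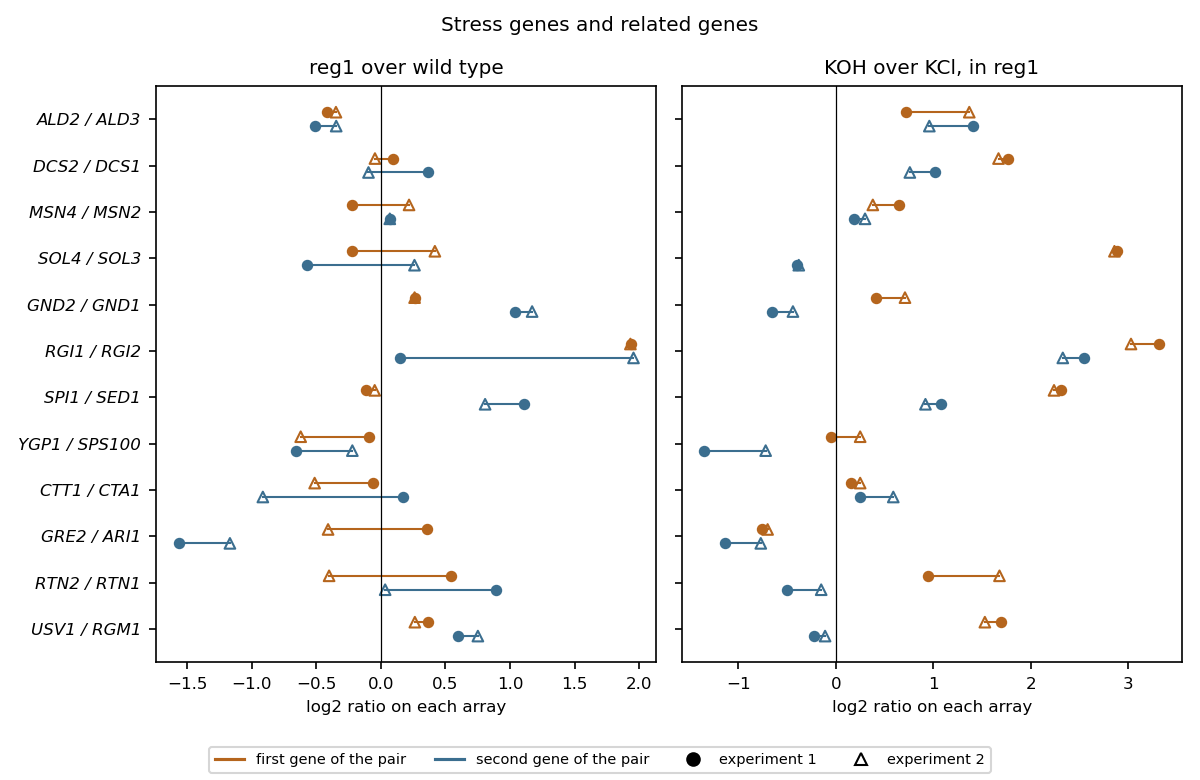
Log2 ratio on each array (circles, experiment 1; triangles, experiment 2) for 12 pairs of related genes, left for reg1 over wild type and right for KOH over KCl in reg1. After KOH SOL4, GND2 and RTN2 lie above 0 on both arrays and SOL3, GND1 and RTN1 below it.

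Genes that control Msn2 and Msn4 were measured beside the members. Their list also holds other transcription factor genes, among them GIS1 and COM2. This list and those below were chosen with earlier results of these data known, so their shares are descriptions and not tests. None of 17 was called in the mutant by limma at an adjusted p of 0.05. At an unadjusted p under 0.05 there were 2, both higher: GIS1 (0.53) and COM2 (0.64), a zinc-finger factor gene named after its value was seen. After KOH 9 of 17 rose and 2 fell, with a median of 0.45. These 11 calls make 64.7% of the list, near the 61.6% called over all rows. Called higher were 52.9% of the list, against 29.0% of all rows. YAK1, a kinase gene of slow growth that acts opposite protein kinase A, had 3.51 ± 0.43 (limma adjusted p = 4.5e-04). GIS1, the gene of a factor for genes of the phase after glucose is used up, had 3.19 ± 0.04, and MSN5, that of the exportin that carries Msn2 and Msn4 out of the nucleus, 2.14 ± 0.13. The 2 that fell were TPK3 (-1.14), a catalytic subunit gene of protein kinase A, and BMH1 (-0.68), a 14-3-3 protein gene, both named after their values were seen. Neither fall was called without alkali experiment 1 or without experiment 2.

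Of the high-osmolarity (HOG) kinase pathway, which shares stress targets with Msn2 and Msn4, none of 9 genes was called in the mutant by limma, with 1 at an unadjusted p under 0.05, HOT1 (-0.43), the gene of a factor under Hog1, named after its value was seen. After KOH 5 rose and 2 fell, but without alkali experiment 1 there was 1 call and without experiment 2 there were 2. The 7 calls make 77.8% of the list, beside 61.6% of all rows. Called higher were 55.6% of the list, beside 29.0% of all rows. SKO1, the gene of a repressor under Hog1, had 1.49 ± 0.03, the sensor gene SLN1 1.05 ± 0.30, and YPD1, of the phosphorelay that follows it, -0.84 ± 0.13. Of 6 genes of glycerol synthesis, uptake and use, 3 rose after KOH, 1 fell and 2 did not pass. That is 66.7% called, near the 61.6% of all rows, and without either alkali array GPP1 alone was called. In the fit of all arrays 50% of these glycerol genes were called higher, beside 29.0% of all rows. The step enzymes went opposite ways, with GPD1 at 1.27 ± 0.05 and GPP1 at -1.39 ± 0.05. GCY1, a glycerol dehydrogenase gene, rose in both comparisons, by 1.44 ± 0.19 in the mutant and 0.79 ± 0.07 after KOH. With the mutant columns at their row names, the mutant value of GCY1 would be -0.22.

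A further list of stress-induced genes of heat, trehalose, glycogen, proteolysis and redox functions had 22 of 30 higher and 4 lower after KOH, with a median of 1.16. Of the list, chosen like the others with earlier results known, 73.3% were called higher, against 29.0% of all rows. Without alkali experiment 1 there were 15 calls and without experiment 2 there were 17, all higher. AIM17 (4.91 ± 0.15), a gene of a mitochondrial protein, and the trehalose synthesis genes TSL1 (4.72 ± 0.13) and TPS2 (3.69 ± 0.04) were highest. In the mutant 6 of 31 rose and 1 fell, with a median of 0.31, and 4 were called, all higher, without mutant experiment 2 or without either alkali array. In the fit of all arrays 19.4% of the list were called higher in the mutant, beside 5.08% of all rows. Called in either direction were 22.6%, beside 6.91% of all rows, whose median was -0.05. HXK1 (3.75), GLK1 (1.71), both of glucose phosphorylation, and the vacuolar protease gene PRB1 (1.70) led that list. HSP26 (-0.82), a small heat shock protein gene named after its value was seen, was the one that fell. Its call was lost without any 1 of the 4 arrays (adjusted p 0.0649 to 0.120). HXK1 and GLK1 are also repressed by glucose, so this list is not one of stress alone.

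**Figure D4:**
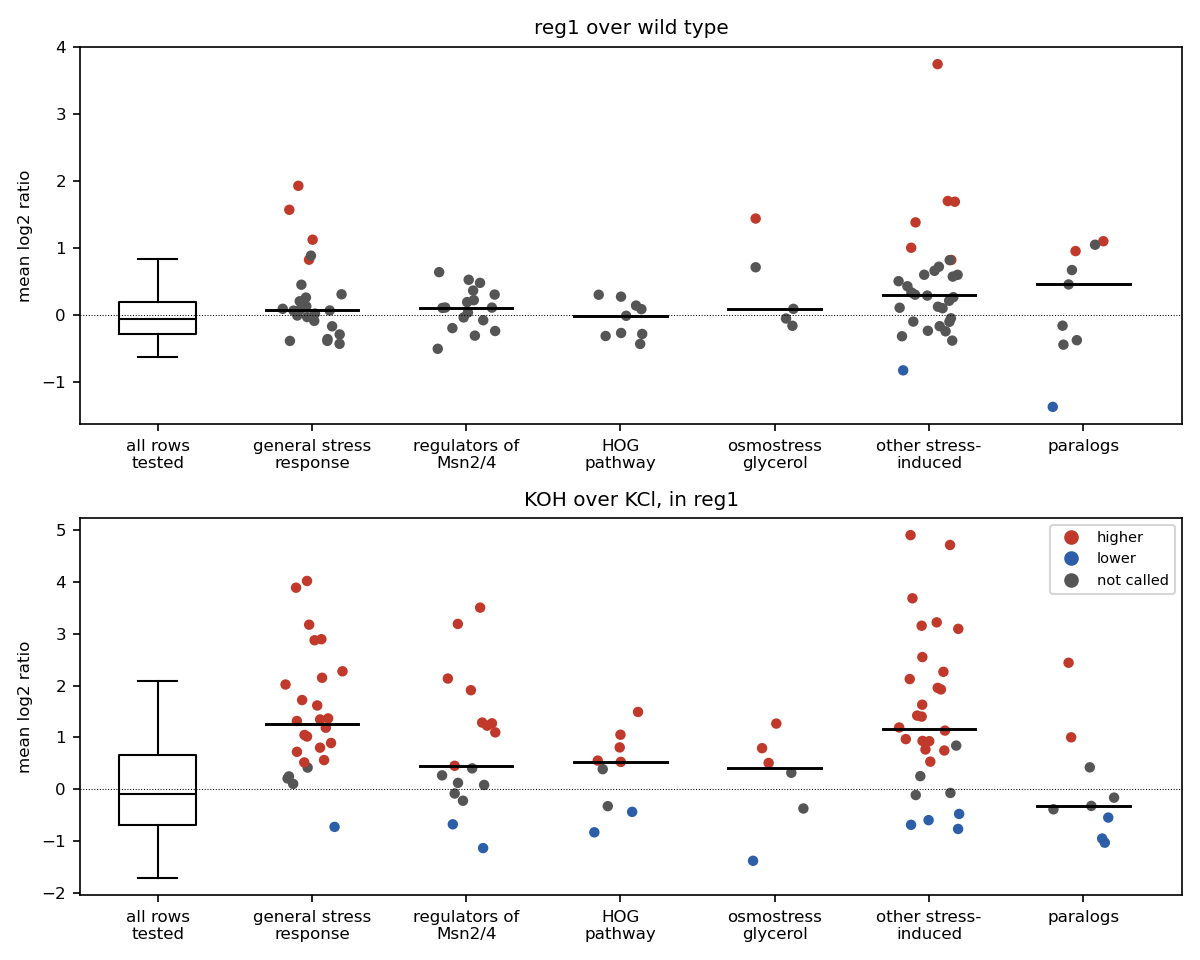
Mean log2 ratio of each gene by list (points, coloured by limma's call; bars, medians) beside all rows tested (box, quartiles; whiskers, 5th to 95th percentile), above for reg1 over wild type and below for KOH over KCl in reg1. After KOH the medians of the stress genes (1.25) and of the other stress-induced genes (1.16) lie above those of the remaining lists.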

How the data were processed

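The authors deposited 1 table of log ratios per row and array. Per the labels, they left out small spots and spots dim in Cy3 and Cy5, and labelled oligo(dT)-primed cDNA indirectly with Cy3 and Cy5. Not given in the sources used here: scanner, background correction, normalization and log base. The deposited values were taken as log2 from their highest value. Array medians lay between -0.120 and -0.028, and no centring was added.

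Mutant columns were realigned as described above, with 20 rows left out on each side of a change of register. Means were tested against 0 with limma 3.58.1 (R 4.3.3, lmFit and eBayes), with all 4 arrays in 1 fit and, per comparison, only rows with a value on both of its arrays (prior degrees of freedom 3.69). Benjamini-Hochberg adjustment ran over all these rows, and an adjusted p under 0.05 was a call. Intervals are 95% limma intervals. With 2 arrays per comparison, their number limits the precision. The scripts were tested on simulated data.

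Of the 6212 rows, 5662 matched a locus tag of RefSeq's table (R64). Every member could be named. Besides these, the 3 called genes with the largest means of each of 5 further lists, and genes related to a member, were named. The members and lists were chosen with earlier results of these data known.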

Additional observations from a re-analysis of the deposited data

How the results depend on the processing

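In the mutant, 4 members were called as reported, 2 with the spread of the mutant arrays alone and 2 at 2-fold or more on both arrays. Leaving out 1 array at a time gave between 2 and 3. The members' median of 0.08 ranged from 0.02 to 0.25 without 1 array. Under KOH, 22 members were called as reported, 13 with arrays scaled to the same spread, 12 at 2-fold or more on both arrays, and between 14 and 23 without 1 array. The median of 1.25 was 1.33 after centring, 0.85 after scaling and 1.32 over rows with at least 1 array, which adds the single value of DDR2, and lay between 1.25 and 1.30 without 1 array. No member's call turned its direction in the 12 alternative fits. Without an alkali array only the mutant pair is left to estimate the mutant's spread; with 1 array left in a comparison, that array is assumed to vary like those of the other comparison. The cause of the other changes was not tested.

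Between the 2 comparisons, the gap between experiments 1 and 2 correlated at r = -0.094 over 4257 rows. Dyes were swapped between these experiments, so the gap may also hold a dye effect. The correlation therefore cannot settle whether the experiment number pairs arrays across comparisons. With the number as a replicate block, 5 members were called in the mutant, HOR7 being added (adjusted p = 0.0293), and 21 under KOH, MSN4 being lost (0.0511). With a dye term HOR7 passed too (4.7e-04), but in both fits its p-value rested on the spread of other genes alone. Read at the row names, the mutant columns gave the same 4 calls among members, but the mean had the other sign for 7 members, none of them called in either reading, and for 12 genes of other lists. Of these 12, 3 were called in one of the readings: HOG1 went from 0.15 to -0.78, GCY1 from 1.44 to -0.22 and HSP104 from 0.83 to -0.38. Of the named genes outside the members, 12 besides HOG1 lost their alkali call after scaling. HOG1 lost its alkali call there too (0.36, limma adjusted p = 0.312). The signal of single spots over background is unknown.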

Other observations

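Reading the mutant columns at the row names would give some members the value of a neighbour. At the row of HOR7 these columns hold 0.24 and -0.06, which in the realigned reading belong to GAD1, while HOR7 itself then has 0.62 and 1.16. At the row of PAI3 they hold 1.08 on experiment 1, which realigned belongs to DDR48. At the row of GRE1 they hold 0.63 and 0.57, although GRE1 was measured on neither mutant array after realignment.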
